A study of Mus musculus with 12 samples.

Results

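The genes described here encode subunits of potassium, sodium and calcium channels. They were taken as every gene in the deposited tables whose symbol starts with Kcn and a further letter, with Scn, a number and a or b, or with Cacna, Cacnb or Cacng. The rule matched 134 of 25655 genes, and 132 of them had at least 1 read over exons in the 12 libraries. Kcnj1 and Kcnk16 had none and were dropped. By role, 40 members are pore-forming subunits of voltage-gated potassium (Kv) channels and 12 are their auxiliary subunits. Another 14 are inward rectifiers (Kir), 13 are two-pore-domain (K2P) leak channels and 12 are calcium- or sodium-activated potassium channel subunits. The sodium channels (Nav) give 10 alpha and 4 beta subunits. The calcium channels (Cav) give 10 alpha1, 4 alpha2delta, 4 beta and 8 gamma subunits, the last group including the TARPs, which accompany AMPA-type glutamate receptors. Kcnrg, a regulator of potassium channels, is the 1 member outside these families.

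RNA was sequenced from 4 groups of 3 libraries each. The first 2 are whole brains at embryonic day 15, from CKO embryos (genotype label (P)RR_CKO, title code fy/cre) and from controls (genotype label Wildtype, title code fy/-). The others are primary neurospheres, free-floating cultures grown from neural stem cells of the forebrain at embryonic day 16, again from CKO embryos (fy/cre) and from controls (fy/-). All were labelled male and of the C57BL/6J strain. CKO stands for a conditional knockout of the (pro)renin receptor, the product of Atp6ap2 and an accessory subunit of the vacuolar proton pump, which the series title places in neural stem cells. No source used here gives the promoter that drives Cre, or says whether replicates came from separate embryos, litters or cultures. P-values therefore measure only the spread between these libraries, which may be technical.

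Voltage-gated sodium channels carry the upstroke of the action potential, voltage-gated potassium channels repolarise the membrane, and voltage-gated calcium channels admit the calcium that drives transmitter release and gene regulation. Inward rectifiers and two-pore-domain channels set the resting potential. In the developing brain most sodium and calcium channel genes are switched on as cells become neurons, while glia rely on inward rectifiers such as Kir4.1 to take up extracellular potassium.

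Brain libraries held 5738810 to 6154400 exon reads in CKO and 5669338 to 6675874 in controls. Neurosphere libraries held 13167498 to 18636787 in CKO and 12382975 to 14050572 in controls. Counts were scaled to CPM, the number of reads of a gene per 1000000 exon reads, with factors computed over all 12 libraries. Before those factors were applied, 1 read was worth 0.0537 to 0.176 CPM. The members drew 0.205 to 0.249% of exon reads in CKO neurospheres, 0.252 to 0.305% in control neurospheres, 0.434 to 0.518% in CKO brains and 0.483 to 0.549% in control brains. Atp6ap2 had 65.6, 51.3 and 56.7 CPM in CKO neurospheres, against 101.3, 102.2 and 100.8 CPM in control neurospheres, and 56.7, 64.2 and 61.3 CPM in CKO brains, against 61.6, 63.9 and 73.8 CPM in control brains. Those counts cover the whole gene and do not resolve a deleted exon. Control neurosphere replicate 1 stood apart. Its 4 Y-linked genes summed to 0.0801 CPM, against 212 and 225 CPM in the other control neurospheres, although its label says male. How the neurosphere calls change without this library is given after them.

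Among the members with the highest level per kilobase of exon in brain were the AMPA receptor partner Cacng4, the calcium channel beta subunit Cacnb3, the sodium channel beta subunit Scn3b and the TARP Cacng7. Levels are in CPM per kilobase of exon (RPKM), as mean ± SD of 3 libraries. Cacng4 averaged 53.6 ± 2.14 RPKM in CKO brains and 62.9 ± 5.30 RPKM in control brains. Cacnb3 averaged 41.2 ± 1.66 RPKM in CKO brains and 46.1 ± 1.14 RPKM in control brains. The ranges of Cacng4 and Cacnb3 did not overlap in either group, so their order held, whereas Scn3b and Cacng7 overlapped in both groups. Scn3a, the main embryonic sodium channel pore, averaged 26.1 ± 1.02 RPKM in CKO brains and 26.5 ± 1.00 RPKM in control brains. Cacna2d1, a calcium channel alpha2delta subunit, averaged 27.1 ± 0.857 RPKM in CKO brains and 25.4 ± 0.413 RPKM in control brains.

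Neurospheres had another order. In CKO neurospheres the highest levels were 44.1 ± 16.2 RPKM for Kcnip3, a calcium-binding Kv4 subunit also known as DREAM, 43.4 ± 10.7 RPKM for the fast delayed rectifier Kcnc1 (Kv3.1) and 42.5 ± 6.66 RPKM for Cacng7. Kcnd3 (Kv4.3) at 36.5 ± 3.65 RPKM, the BK channel beta subunit Kcnmb4 at 32.8 ± 7.65 RPKM and Kcna2 (Kv1.2) at 20.9 ± 3.24 RPKM followed. In control neurospheres Cacng7 was highest at 65.6 ± 15.8 RPKM. It was followed by Kcnip3 at 41.4 ± 2.46 RPKM, the Kv subunit Kcne1l (Kcne5) at 37.6 ± 24.2 RPKM, the glial inward rectifier Kcnj10 (Kir4.1) at 32.4 ± 12.8 RPKM, Kcnd3 at 32.1 ± 7.57 RPKM and Kcnmb4 at 27.0 ± 0.118 RPKM. In CKO neurospheres the ranges of Kcnip3, Kcnc1 and Cacng7 overlapped one another. In control neurospheres every Cacng7 library, from 47.3 to 75.1 RPKM, was above every Kcnip3 library, from 39.6 to 44.2 RPKM, while Kcne1l ranged from 10.7 to 57.3 RPKM and overlapped both. The order of the highest members is therefore only partly resolved.

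**Figure D1:**
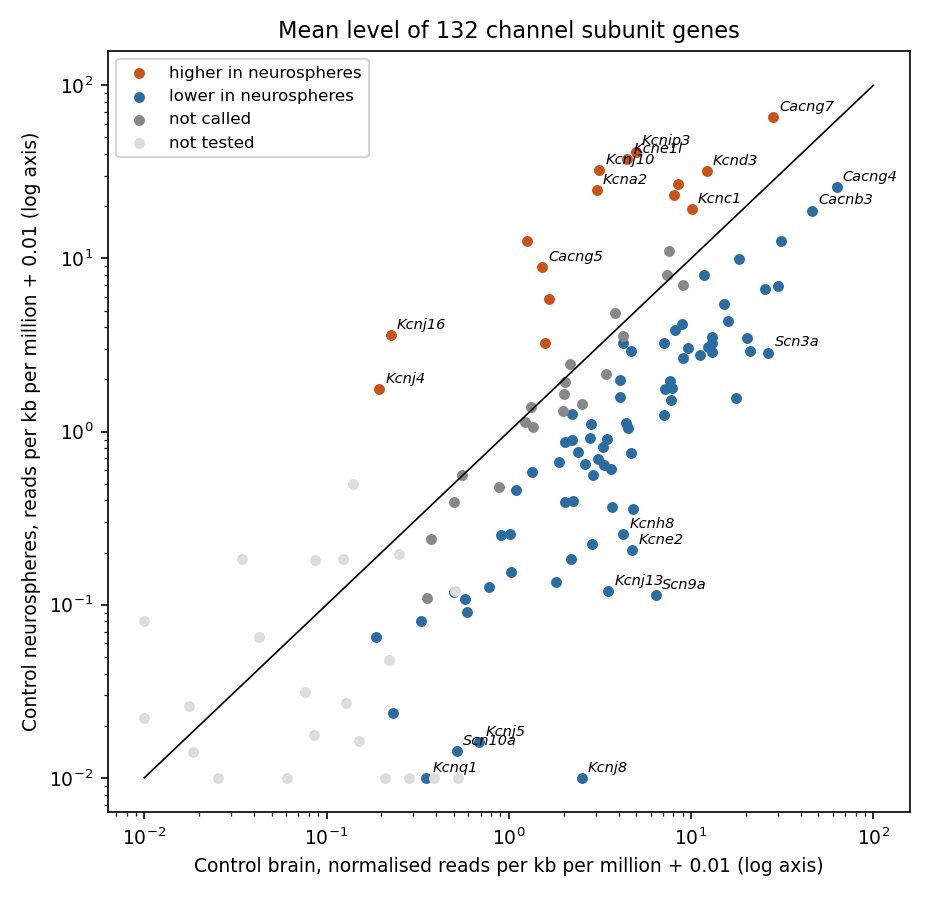
Mean level of each of the 132 members in control neurospheres (vertical) against control brains (horizontal), both in RPKM plus 0.01 on log axes, 3 libraries per group. Points are coloured by the edgeR call and the line marks equal levels; most members lie below it, with 76 lower and 15 higher among 110 tested.

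Control neurospheres were compared with control brains to describe which channel genes each tissue expresses. Neurospheres had lower levels of most sodium and calcium channel genes. A number of potassium channel genes and some TARPs kept or exceeded the brain level. Of 110 members tested with edgeR's quasi-likelihood test across all 12 libraries, 76 were lower in neurospheres (35.5% of all 14415 genes tested were) and 15 were higher (34.9% of all genes). Their median log2 fold change, neurosphere over brain, was -1.65, against -0.01 over all genes tested. In 76 members every neurosphere library lay below every brain library (37.9% of all genes did), and in 15 every one lay above (36.4% of all genes). The groups differ also in embryonic day, in culture and in the share of reads outside exons, which was 9.18 to 14.1% in control neurospheres and 63.8 to 65.5% in control brains. These cannot be told apart from the tissue. The 12 neuron markers summed to 2237 to 2616 CPM in control neurospheres and 6473 to 7175 CPM in control brains, and 11 were lower. The 9 stem cell and radial glia markers summed to 6924 to 8178 CPM in control neurospheres and 1337 to 1480 CPM in control brains, and 6 were higher. The part of such cells in the channel differences was not tested.

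Every tested member of 4 families was lower in neurospheres. All 9 Nav alpha subunits tested were, with a median log2 fold change of -2.79, and so were all 8 Cav alpha1 (-2.28), all 4 Cav alpha2delta (-1.83) and all 4 Cav beta subunits (-1.54). Scn3a had 37.6, 26.6 and 21.5 CPM in control neurospheres, against 259, 278 and 262 CPM in control brains, a log2 fold change of -3.22 ± 0.318 (SE; edgeR adjusted p = 4.38e-06). Scn9a (Nav1.7) had 0.721, 1.19 and 1.21 CPM in control neurospheres, against 55.7, 74.5 and 62.5 CPM in control brains, a log2 fold change of -5.93 ± 0.327 (edgeR adjusted p = 6.68e-08). The groups lay far apart for both genes. Among calcium channels, Cacna1e (the R-type pore) had 61.1, 41.0 and 36.8 CPM in control neurospheres, against 313, 362 and 330.5 CPM in control brains. The T-type pore Cacna1g was at 18.4, 11.3 and 9.87 CPM in control neurospheres and 144, 150.1 and 156 CPM in control brains, whereas its relative Cacna1h, at 106, 70.4 and 70.5 CPM in control neurospheres and 148, 158 and 151 CPM in control brains, fell by only 0.89 on the log2 scale.

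Some members had no or almost no reads in control neurospheres. Kcnj8, the Kir6.1 subunit known from pericytes, had 0 reads in the 3 control neurosphere libraries and 123 reads in the 3 control brain libraries, which is at least 78.5-fold lower against a floor of 3 reads over the group. Kcnq1, known from heart and inner ear, had 0 and 27 reads, at least 17.2-fold lower. Scn10a (Nav1.8 of sensory neurons) had 1 read in control neurospheres and 64 in control brains, a ratio of 0.00816 (95% counting interval 0.000204 to 0.0471). Kcnj5 (Kir3.4) had 1 and 63 reads, a ratio of 0.00829 (0.000207 to 0.0479). Such intervals cover counting error only. With the 2 tested members at 0, Kcnj8 and Kcnq1, set to their bounds, the median over the 110 members was again -1.65. It could not move, since both bounds, -6.29 and -4.11 on the log2 scale, lie below it. Kcnj13 (Kir7.1) and Kcne2, both known from choroid plexus epithelium, and Kcnh8 (Elk3) were lower by -4.92, -4.54 and -4.08 on the log2 scale, each with neurosphere and brain libraries that did not overlap. In the same libraries the 8 markers of pericytes, smooth muscle and fibroblasts summed to 24.0 to 57.2 CPM in control neurospheres and 541 to 1154 CPM in control brains, and the part of such cells in these differences was not tested. In bulk RNA, fewer cells of a type and less RNA per cell cannot be told apart.

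The members that were higher in neurospheres were largely potassium channels and 2 TARPs. Kcnj10 had 95.3, 212 and 218 CPM in control neurospheres, against 15, 16.9 and 18.6 CPM in control brains, a log2 fold change of 3.38 ± 0.481 (edgeR adjusted p = 7.24e-05). Its partner Kcnj16 (Kir5.1), which forms mixed channels with Kir4.1 in glia, had 23.8, 9.21 and 9.34 CPM in control neurospheres, against 0.865, 0.338 and 1.34 CPM in control brains. Both Kir genes stood apart in every library. Kcna2 had 319, 273 and 290.5 CPM in control neurospheres and 33.6, 40.9 and 33.4 CPM in control brains, the rise with the smallest error (3.03 ± 0.141, edgeR adjusted p = 2.13e-08, among the 8 largest). Kcnip3 had 130.3, 128 and 143 CPM in control neurospheres and 15.7, 18.4 and 14 CPM in control brains. Cacng5, Kcne1l and the Kir2.3 gene Kcnj4 were also among the 8 largest rises, at 2.56, 3.08 and 3.18 on the log2 scale. The 7 astrocyte markers summed to 1194, 4201 and 3246 CPM in control neurospheres and 530 to 539 CPM in control brains, and the 12 oligodendrocyte lineage markers to 2087, 3928 and 3349 CPM in control neurospheres and 145 to 190.3 CPM in control brains.

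**Figure D2:**
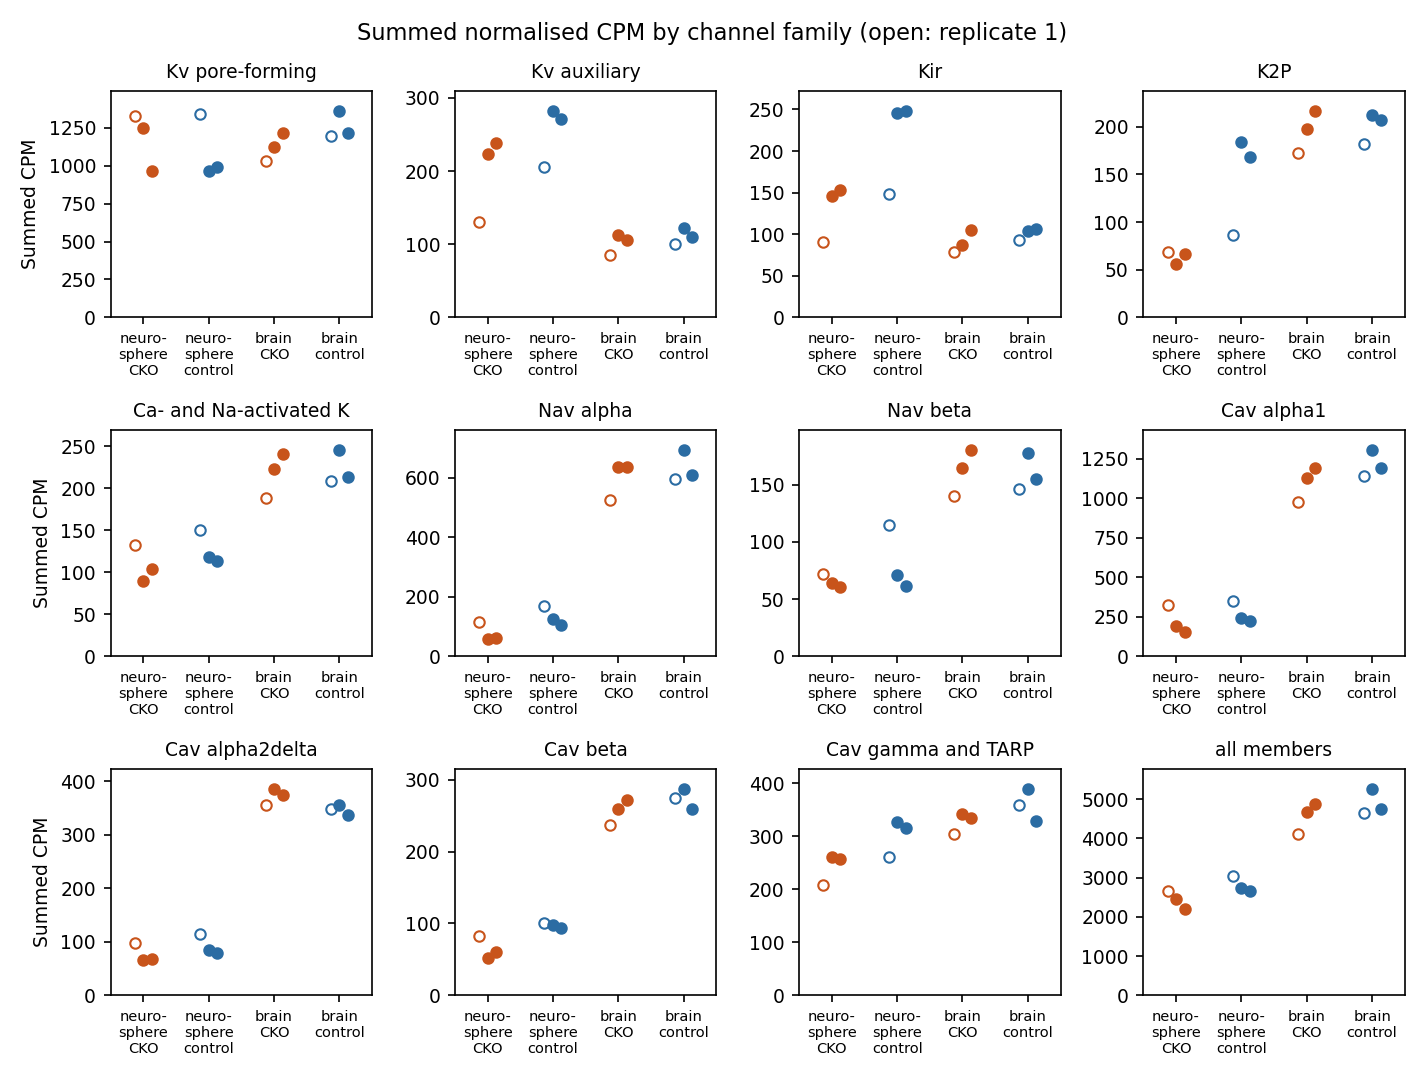
Summed normalised CPM of each channel family in each library, neurospheres left of brain and CKO left of control within each; open points are replicate 1. Nav alpha and beta, Cav alpha1, alpha2delta and beta families sum to less in every neurosphere library than in any brain library, the Cav gamma family overlaps, and the Kv auxiliary sum is higher in every neurosphere library.

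The CKO was then compared with the control in neurospheres. CKO neurospheres had lower levels of 13 potassium channel genes, the sodium channel pore Scn8a and 2 calcium channel beta subunits, and higher levels of the potassium channel genes Kcnk5 and Kcng1. Of 94 members tested, 16 fell (12% of all 13316 genes tested fell) and 2 rose (14.7% of all genes rose), by edgeR with Benjamini-Hochberg adjustment over all genes. The share of members that fell lay near that of all genes. The median log2 fold change of CKO over control was -0.55 over the members and -0.02 over all genes tested, and 72.3% of members lay below 0, against 51.5% of all genes. In 24 members every CKO library lay below every control library (22.6% of all genes did), and in 2 every one lay above (25.3% of all genes).

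**Figure D3:**
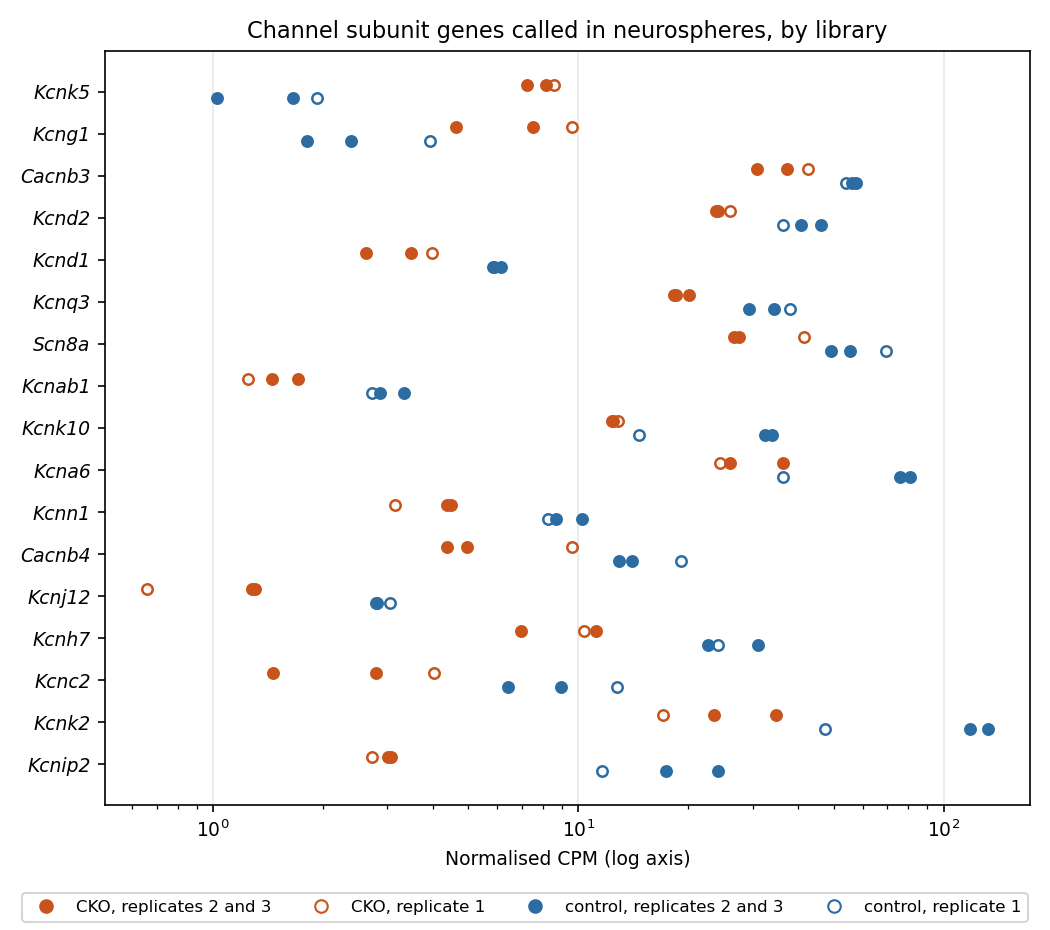
Normalised CPM (log axis) of members called in neurospheres, one row per gene with CKO libraries above control libraries and replicate 1 drawn open. Kcnk5 and Kcng1 lie to the right in CKO; the others lie to the left, with overlap between groups only for Kcna6.

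Of the 3 Kv4 pores of the A-type current and the 4 KChIP subunits that join them, 3 members fell. Kcnip2 (KChIP2), which brings Kv4 channels to the membrane and slows their inactivation, had 2.71, 3.08 and 3.00 CPM in CKO neurospheres, against 11.6, 24.1 and 17.4 CPM in control neurospheres. All 3 CKO libraries lay far below the lowest control. The log2 fold change was -2.58 ± 0.296 (edgeR adjusted p = 0.00847), the largest fall among the members. The pores Kcnd1 (Kv4.1) and Kcnd2 (Kv4.2) also fell. Kcnd2 had 26, 23.8 and 24.1 CPM in CKO neurospheres, against 36.3, 40.8 and 46.1 CPM in control neurospheres (-0.74 ± 0.120, edgeR adjusted p = 0.0127). Kcnd1 was lower by -0.83 ± 0.240 (edgeR adjusted p = 0.0458). The third pore, Kcnd3, had 308, 270.3 and 254 CPM in CKO neurospheres and 309, 200.4 and 221 CPM in control neurospheres, which overlap (0.19 ± 0.181, edgeR adjusted p = 0.465). Kcnip1, Kcnip3 and Kcnip4, at -0.45 ± 0.157, 0.09 ± 0.277 and -0.58 ± 0.284, did not pass either. Kcnd3 passed as higher without control replicate 1 (0.39 ± 0.107, edgeR adjusted p = 0.0325). Kcnd3 and Kcnip3 both did without the 2 libraries numbered 1, at 0.32 ± 0.0785 and 0.36 ± 0.0813. Kcnip1 passed as lower in that fit, at -0.49 ± 0.168 (edgeR adjusted p = 0.0427). Dpp6 and Dpp10, partners of Kv4 channels that are not members, fell by 1.02 and 2.24 on the log2 scale (edgeR adjusted p = 0.00852 and 0.0163).

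Other Kv pores that fell included Kcnc2, Kcnh7, Kcna6 and Kcnq3. Kcnc2 (Kv3.2), which repolarises fast-spiking neurons, had 4.03, 2.79 and 1.46 CPM in CKO neurospheres, against 12.7, 8.96 and 6.40 CPM in control neurospheres (-1.75 ± 0.430, edgeR adjusted p = 0.0299). Kcnh7, an ERG channel, had 10.3, 6.97 and 11.2 CPM in CKO neurospheres, against 24.1, 22.7 and 31.1 CPM in control neurospheres (-1.45 ± 0.226, edgeR adjusted p = 0.012). The groups did not overlap for either. Kcnq3 (Kv7.3), a subunit of the M-current channel that restrains repeated firing, had 18.6, 20.1 and 18.3 CPM in CKO neurospheres, against 38.0, 34.3 and 29.2 CPM in control neurospheres (-0.83 ± 0.135, edgeR adjusted p = 0.0126). Kcna6 (Kv1.6) fell (-1.15 ± 0.321, edgeR adjusted p = 0.0421), although CKO replicate 3 at 36.4 CPM lay level with control replicate 1 at 36.3 CPM. Kcnab1, a beta subunit that speeds inactivation of Kv1 channels, fell by 1.01 on the log2 scale.

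Kcng1 (Kv6.1), a silent subunit that conducts only together with pores of another Kv family, moved the other way. It had 9.61, 7.49 and 4.63 CPM in CKO neurospheres, against 3.92, 2.39 and 1.81 CPM in control neurospheres, without overlap (1.42 ± 0.402, edgeR adjusted p = 0.0436).

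Leak channels moved in both directions. Kcnk5 (TASK-2), a leak channel opened by alkaline pH, had 8.58, 8.13 and 7.22 CPM in CKO neurospheres, against 1.92, 1.02 and 1.66 CPM in control neurospheres. Every CKO library was above every control library, and the log2 fold change was 2.37 ± 0.291 (edgeR adjusted p = 0.0089). Kcnk2 (TREK-1), a leak channel gated by membrane stretch and lipids, had 17, 23.5 and 34.7 CPM in CKO neurospheres, against 47.5, 132 and 118 CPM in control neurospheres (-1.98 ± 0.432, edgeR adjusted p = 0.0227). Its close relative Kcnk10 (TREK-2) had 12.8, 12.4 and 12.4 CPM in CKO neurospheres, against 14.7, 32.5 and 33.9 CPM in control neurospheres (-1.10 ± 0.310, edgeR adjusted p = 0.0427). For both TREK genes control replicate 1 was the lowest control. The K2P family as a whole summed to 68.4, 56.0 and 66.4 CPM in CKO neurospheres, against 86.9, 184 and 168 CPM in control neurospheres. Kcnk1 (TWIK-1) was not called, at 7.11, 3.54 and 3.08 CPM in CKO neurospheres and 4.24, 6.65 and 5.50 CPM in control neurospheres. It passed as lower without both libraries numbered 1 (-0.86 ± 0.245, edgeR adjusted p = 0.0212).

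Among the remaining potassium channels, the strong inward rectifier Kcnj12 (Kir2.2) and the small-conductance calcium-activated channel Kcnn1 (SK1) fell. Kcnn1 had 3.15, 4.36 and 4.46 CPM in CKO neurospheres, against 8.25, 10.2 and 8.66 CPM in control neurospheres (-1.18 ± 0.225, edgeR adjusted p = 0.0167). Kcnj12 had 0.66, 1.28 and 1.30 CPM in CKO neurospheres, against 3.04, 2.81 and 2.79 CPM in control neurospheres (-1.41 ± 0.345, edgeR adjusted p = 0.0296). Both sets of libraries were separate. The BK pore Kcnma1 at 0.20 ± 0.457, its subunit Kcnmb4 at 0.28 ± 0.174 and Kcnn2 (SK2) at -0.63 ± 0.371 on the log2 scale were not called.

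Of 9 sodium channel subunits tested, Scn8a alone fell with all libraries. Scn8a (Nav1.6), the pore of mature axon initial segments, had 41.4, 26.6 and 27.6 CPM in CKO neurospheres, against 69.7, 55.4 and 49.0 CPM in control neurospheres (-0.86 ± 0.220, edgeR adjusted p = 0.0331). Scn1a, Scn2a and Scn3a had log2 fold changes of -1.24 ± 0.515, -0.49 ± 0.372 and -0.83 ± 0.414, and each overlapped between groups and did not pass. Scn3b was lower in every CKO library, at 43.4, 28.9 and 28.3 CPM in CKO neurospheres and 70.0, 56.7 and 44.6 CPM in control neurospheres, but did not pass (edgeR adjusted p = 0.0535). Scn2b was at -0.10 ± 0.427, and Scn4b was too low to be tested. Without both libraries numbered 1, Scn1a, Scn2a, Scn3a and Scn3b also passed as lower (edgeR adjusted p = 0.00295, 0.00356, 0.000791 and 0.00181). Another subunit passed as higher in that fit, and Scn2b did not pass.

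Calcium channel beta subunits, which carry the pore to the membrane, held the Cav calls of the fit with all libraries. Cacnb4 had 9.61, 4.36 and 4.95 CPM in CKO neurospheres, against 19.1, 14 and 12.9 CPM in control neurospheres (-1.28 ± 0.347, edgeR adjusted p = 0.0384). Cacnb3 had 42.5, 30.8 and 37.3 CPM in CKO neurospheres, against 54.0, 56.0 and 57.6 CPM in control neurospheres (-0.60 ± 0.133, edgeR adjusted p = 0.0232). The groups were separate for both. Without control replicate 1 Cacnb4 did not pass (-1.10 ± 0.355, edgeR adjusted p = 0.0535). Cacnb1 was at -0.55 ± 0.235 and Cacnb2 at 0.60 ± 0.460, and neither passed with all libraries. Without both libraries numbered 1, Cacnb1 passed as lower (edgeR adjusted p = 0.0018) and Cacnb2 as higher (edgeR adjusted p = 0.0464). With all libraries the 8 Cav alpha1 pores tested all had negative log2 fold changes and did not pass. Cacna1i, a T-type pore, had an unadjusted p under 0.05. Without control replicate 1 Cacna1g and Cacna1h were above 0, at 0.20 and 0.22. Without both libraries numbered 1, Cacna1a, Cacna1b, Cacna1c, Cacna1d, Cacna1e and Cacna1i passed as lower (edgeR adjusted p = 0.000507 to 0.0414). Cacna1g and Cacna1h did not pass there either. In the fit with all libraries the values were -0.31 for Cacna1a, -0.28 for Cacna1b, -0.42 for Cacna1c and -0.68 for Cacna1d. They were -0.65 for Cacna1e, -0.12 for Cacna1g, -0.0045 for Cacna1h and -1.01 for Cacna1i. The alpha2delta subunits Cacna2d1, Cacna2d2 and Cacna2d3, at -0.20, -0.25 and -0.54, did not pass with all libraries. Cacna2d3 alone of them passed as lower without both libraries numbered 1 (edgeR adjusted p = 0.0151). The 6 gamma and TARP subunits tested did not pass with all libraries. Without control replicate 1 Cacng4 and Cacng7 passed as lower, at -0.52 ± 0.122 (edgeR adjusted p = 0.0204) and -0.82 ± 0.144 (edgeR adjusted p = 0.00828). Cacng8, another TARP, passed as higher at 0.76 ± 0.155 (edgeR adjusted p = 0.0129). Without both libraries numbered 1 all 6 passed, Cacng5 and Cacng8 as higher and the other 4 as lower.

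**Figure D4:**
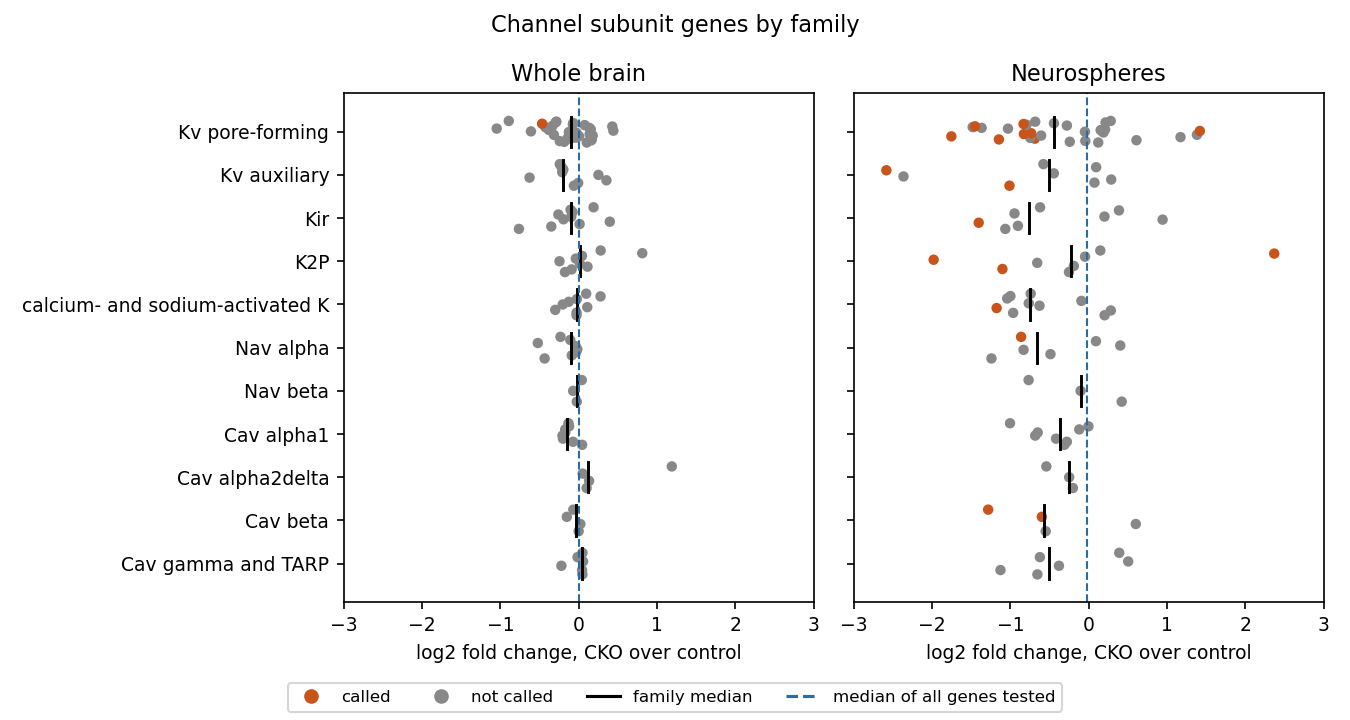
Log2 fold change of CKO over control for every tested member, by channel family, in brain (left) and neurospheres (right); orange points were called by edgeR, black bars are family medians and the dashed line is the median of all genes tested. Brain values cluster near 0 with 1 member called, and in neurospheres all 11 family medians lie below 0.

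Other genes of excitability, listed as non-members, fell in part as well. Of 20 channel partners and axon initial segment genes tested in neurospheres, 8 fell (12% of all genes tested fell). Cntn1, a contactin that joins sodium channel beta subunits, fell by 1.70 on the log2 scale (edgeR adjusted p = 0.012), and Nfasc, the neurofascin of the initial segment, by 1.50 (0.0327). Of 7 pacemaker and leak channel genes 1 fell, the sodium leak channel Nalcn (-1.65, edgeR adjusted p = 0.0342). Among 16 ion pumps, exchangers and cotransporters 3 rose and 3 fell (14.7% of all genes tested rose). Slc12a2 (NKCC1), which loads immature cells with chloride, rose by 0.68 (edgeR adjusted p = 0.0234). Of 6 genes of the RE1 silencing complex, which represses neuronal channel genes outside neurons, 4 rose (14.7% of all genes tested rose). These were Rcor1, Sin3a, Hdac1 and Hdac2. Rest itself was at 0.07 ± 0.150 (edgeR adjusted p = 0.761) and Rcor2 at -0.61 ± 0.278 (edgeR adjusted p = 0.144). The part of this complex in the channel values was not tested.

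Some markers of neurons and glia changed too, in both directions (12% of all genes tested fell and 14.7% rose). The 12 neuron markers summed to 2151, 1399 and 1422 CPM in CKO neurospheres, against 2237, 2616 and 2243 CPM in control neurospheres, and 6 fell while Gap43 rose. The 12 oligodendrocyte lineage markers summed to 1854, 1902 and 1738 CPM in CKO neurospheres, against 2087, 3928 and 3349 CPM in control neurospheres. Of 10 tested 7 fell, and Mag was at 0 in all CKO libraries. The 7 astrocyte markers summed to 709, 1337 and 1515 CPM in CKO neurospheres, against 1194, 4201 and 3246 CPM in control neurospheres, and 2 fell. The 9 stem cell and radial glia markers summed to 8436, 8953 and 8682 CPM in CKO neurospheres, against 6924, 7774 and 8178 CPM in control neurospheres. Of 9 tested 0 were called, and their median log2 fold change was -0.34. Nes, Vim and Hes1 were above 0, while Sox2, Pax6, Hes5, Fabp7, Slc1a3 and Prom1 were below 0. Pericyte, smooth muscle and fibroblast markers summed to 140.4, 49.2 and 1153 CPM in CKO neurospheres, against 24.0, 57.2 and 41.8 CPM in control neurospheres. The part of such cells in the channel results was not tested.

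The calls depended on single libraries. With control replicate 1 left out, 20 members fell and 9 rose. They included 14 of the 16 that fell and both that rose with all libraries. With both libraries numbered 1 left out, 46 members fell and 12 rose. Over all genes, 1595 fell and 1958 rose with all libraries. These counts were 2391 and 2850 in the fit without control replicate 1, and 3633 and 3740 in the fit without both. Kcnc1 had 442, 485 and 294 CPM in CKO neurospheres and 320.5, 105 and 114 CPM in control neurospheres. It was not called with all libraries (1.17 ± 0.466, edgeR adjusted p = 0.105), and was called without control replicate 1 (1.89 ± 0.227, edgeR adjusted p = 0.00281). Kcne1l had 4.25, 12.3 and 17.1 CPM in CKO neurospheres and 16.5, 88.5 and 69.3 CPM in control neurospheres, with an edgeR adjusted p of 0.0516 with all libraries and 0.00807 without control replicate 1. For both genes control replicate 1 was the control nearest to the CKO libraries. Kcnj16 did not pass with all libraries (0.94 ± 0.437, edgeR adjusted p = 0.148) and passed without that library, at 1.55 ± 0.284. Kcnj10, at 29.9, 105 and 116 CPM in CKO neurospheres and 95.3, 212 and 218 CPM in control neurospheres, was at -1.07 ± 0.537 with all libraries (edgeR adjusted p = 0.176) and -1.37 ± 0.518 without control replicate 1 (edgeR adjusted p = 0.0834). It passed with both libraries numbered 1 left out (-0.96 ± 0.0781, edgeR adjusted p = 0.000134). Without control replicate 3 or without CKO replicate 2, no member was called, and neither was any other gene of the whole table. In the fit without control replicate 2 the counts were 3 lower and 1 higher (266 and 532 over all genes). Leaving out CKO replicate 3 gave 6 lower and 1 higher (504 and 855 over all genes). Kcnk5, Kcnip2, Kcnh7 and Kcnq3 were called in 4 of the 6 fits that left out 1 library, and Kcnd2 and Kcnn1 in 3. Kcnk2, Kcnc2, Kcnj12, Scn8a, Cacnb3 and Kcnd1 were called in 2. Those called in only 1 included Kcng1, Kcnk10, Kcna6, Kcnab1 and Cacnb4.

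Reads inside a gene but outside its exons gave a further readout of the same libraries. In neurospheres 2 of 70 members tested fell by these intron reads (0.777% of all genes tested fell), Kcnip2 and Kcnh7, and none rose by edgeR (1.19% of all genes rose), with 4 higher at an unadjusted p under 0.05 and 1 called higher by DESeq2. Of the 16 members that fell by exon reads, 14 could be tested and 13 had a negative value. Kcnab1 had a positive value, at 0.45 ± 0.256 (edgeR adjusted p = 0.336). Kcnip2 had 11.7, 10.2 and 13 intron CPM in CKO neurospheres, against 25.1, 38.2 and 30.7 in control neurospheres (-1.44 ± 0.252, edgeR adjusted p = 0.0445). Kcnh7 had 56.3, 64.0 and 76.8 intron CPM in CKO neurospheres, against 110.9, 128 and 156 in control neurospheres (-1.02 ± 0.190, edgeR adjusted p = 0.0461). Both genes were separate between groups in exon and intron reads. The 2 members that rose by exon reads had too few intron reads to be tested.

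The stretches before the starts of Kcnip2 and Kcnh7, which fell in both kinds of read, and of Kcnk5, which rose most, are shown to let their base composition be compared. Each is the 250 bases upstream of the RefSeq start on GRCm38.p6, read 5′ to 3′ on the minus strand of the chromosome, and capitals mark GC boxes (GGGCGG, or CCGCCC on the other strand). They lie at chr19:45816064-45816313 for Kcnip2, chr2:63184288-63184537 for Kcnh7 and chr14:20181783-20182032 for Kcnk5.
Kcnip2: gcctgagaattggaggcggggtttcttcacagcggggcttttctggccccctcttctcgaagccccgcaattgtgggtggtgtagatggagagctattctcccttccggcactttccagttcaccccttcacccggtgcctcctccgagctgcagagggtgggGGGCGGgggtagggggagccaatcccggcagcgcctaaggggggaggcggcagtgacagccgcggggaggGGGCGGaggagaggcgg
Kcnh7: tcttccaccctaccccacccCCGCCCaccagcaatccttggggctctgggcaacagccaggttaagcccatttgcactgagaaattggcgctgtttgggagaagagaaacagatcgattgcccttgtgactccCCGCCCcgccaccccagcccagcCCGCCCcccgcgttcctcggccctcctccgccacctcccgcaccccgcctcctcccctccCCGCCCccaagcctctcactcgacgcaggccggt
Kcnk5: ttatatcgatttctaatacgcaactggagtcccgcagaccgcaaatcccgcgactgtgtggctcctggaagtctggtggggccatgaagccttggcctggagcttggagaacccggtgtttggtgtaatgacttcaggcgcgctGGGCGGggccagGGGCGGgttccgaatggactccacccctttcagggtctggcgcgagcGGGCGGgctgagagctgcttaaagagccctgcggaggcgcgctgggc
Kcnip2 holds 2 GC boxes, Kcnh7 holds 4 and Kcnk5 holds 3, and G and C make up 66.8, 67.6 and 62.8% of these windows. RefSeq windows were found for 97 of the 132 members, 133 windows in all. A GC box on either strand was in 42.9% of the 133, against 32.7% of the 32851 windows of all genes. The TATA box letters TATAAA, on either strand, were in 3.76% of member windows and 12.4% of all windows. The E-box letters CAGATG, on either strand, were in 13.5% of member windows and 14.4% of all windows. These 3 motifs were counted apart from one another, and a match describes letters only.

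In whole brain the CKO changed the members little. Of 103 tested, 1 fell (0.199% of all 13557 genes tested fell) and none rose by edgeR (0.243% of all genes rose), with 11 lower and 1 higher at an unadjusted p under 0.05. DESeq2 also called 1 lower and 0 higher. The median log2 fold change was -0.07 over the members and 0.0032 over all genes, and 65.0% of members lay below 0, against 49.1% of all genes. Every CKO library lay below every control library in 15 members (7.91% of all genes did) and above in 4 (6.67% of all genes).

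The member that fell in brain was Kcnq3, the M-current subunit that also fell in neurospheres. It had 111, 97.6 and 125 CPM in CKO brains, against 150.4, 158 and 156 CPM in control brains. All CKO brains were below all control brains, and the log2 fold change was -0.47 ± 0.0859 (edgeR adjusted p = 0.048). The call was close to the threshold, and it held in 1 of 6 fits that left out a library. By intron reads Kcnq3 was at -0.21 ± 0.0754 and did not pass (edgeR adjusted p = 0.49). Kcnj10 had 7.71, 11.0 and 10.8 CPM in CKO brains, against 15, 16.9 and 18.6 CPM in control brains, without overlap (-0.76 ± 0.172, edgeR adjusted p = 0.11). The authors' deposited table lists Kcnj10 in brain with a signed fold change of -1.70 and an FDR of 0.0376, and Kcnq3 with -1.39 and 0.00168.

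Kcnh7 was at -0.34 ± 0.0821 in brain (edgeR adjusted p = 0.153), and Cacng4 at -0.22 ± 0.0691 (edgeR adjusted p = 0.295). Neither passed, although in both every CKO brain lay below every control brain. The 8 Nav alpha subunits tested had log2 fold changes below 0 with a median of -0.10 and did not pass. The 4 alpha2delta subunits were all above 0, with a median of 0.12. By intron reads 1 of 100 members tested fell in brain (0.164% of all genes tested fell) and none rose by edgeR (0.143% of all genes rose), with 4 higher at an unadjusted p under 0.05 and 0 called higher by DESeq2. The 1 that fell was Kcnn3 (SK3), named after its values were seen, at 141, 131.5 and 161 intron CPM in CKO brains and 199.5, 202 and 193 in control brains (-0.44 ± 0.0754, edgeR adjusted p = 0.0393). Its exon reads were at -0.13 ± 0.166. The 12 neuron markers summed to 5821, 6347 and 6387 CPM in CKO brains, against 6697, 7175 and 6473 CPM in control brains. The 7 astrocyte markers summed to 498.5 to 546 CPM in CKO brains and 530.2 to 539 CPM in control brains, and of 6 tested 2 fell, Aldh1l1 and Aldoc (edgeR adjusted p = 0.0176 and 0.0159). Fabp7, 1 of the 9 stem cell and radial glia markers, fell by 0.79 on the log2 scale (edgeR adjusted p = 0.00535). The 8 microglia markers summed to 68.6 to 89.8 CPM in CKO brains and 48.5 to 60.7 CPM in control brains, and of 7 tested 1 rose, Fcrls, by 1.30 on the log2 scale (edgeR adjusted p = 0.0292). The part of these cells in the channel values, Kcnj10 included, was not tested.

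**Figure D5:**
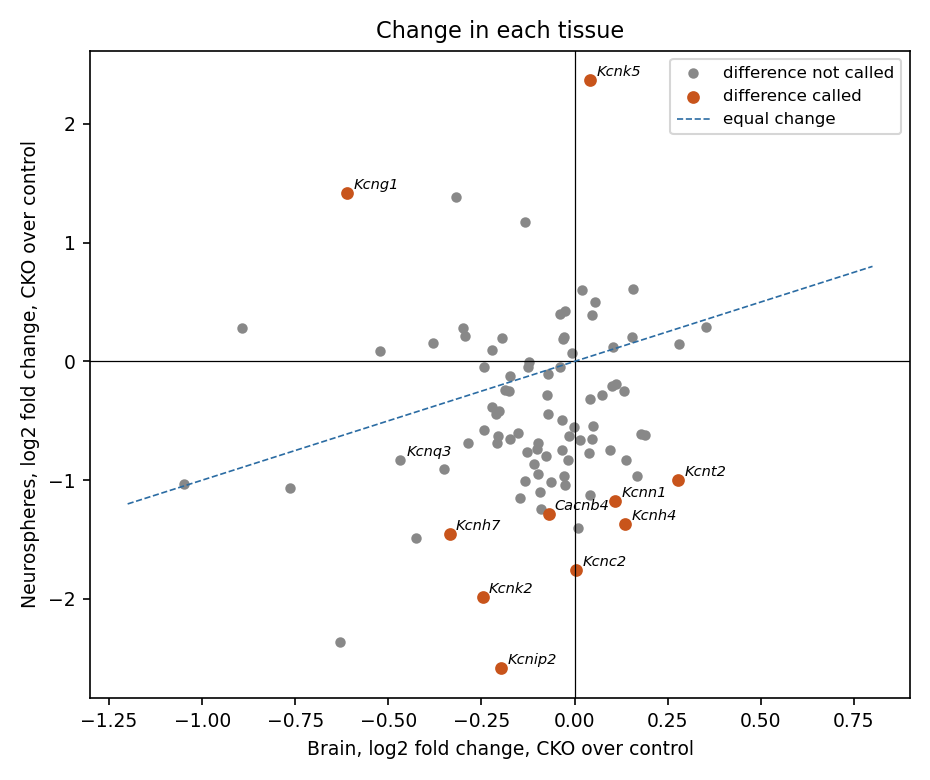
Log2 fold change of CKO over control in neurospheres (vertical) against brain (horizontal) for members tested in both; orange marks members whose change differed between the tissues by the interaction test and the dashed line marks equal change. Kcnk5 and Kcng1 lie above 0 in neurospheres, at 2.37 and 1.42, and at 0.04 and -0.61 in brain; Kcnq3, labelled too, lies below 0 in both.

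The difference between the 2 tissues was tested as an interaction in 1 fit of all 12 libraries. For 8 of 110 members the change was lower in neurospheres than in brain (6.06% of all 14415 genes tested were) and for 3 it was higher (7.21% of all genes). Kcnk5, Kcnip2, Kcnn1 and Kcnh7 kept this call in all 12 fits that left out 1 library. Such fits share 1 spread per gene between the tissues. Replicate pairs differed by a chi-square per degree of freedom of up to 57.8 in neurospheres and 6.14 in brain. The p-values can therefore be too small for neurospheres. In the fits of neurospheres alone, Kcnk5, Kcnip2 and Kcnh7 were called in 4 of 6 and Kcnn1 in 3. Kcnk5 had 3.54, 3.51 and 4.27 CPM in CKO brains and 3.90, 3.89 and 3.27 CPM in control brains, and its change was higher in neurospheres by 2.33 ± 0.350 (edgeR adjusted p = 0.00463). Kcnip2 had 3.21, 4.57 and 5.26 CPM in CKO brains and 4.47, 5.07 and 5.49 CPM in control brains, and its change was lower by -2.38 ± 0.395 (edgeR adjusted p = 0.00632). Kcnk5 and Kcnip2 thus overlapped between the brain groups and not between the neurosphere groups. Kcnn1 and Kcnh7 differed by -1.28 ± 0.224 and -1.12 ± 0.235. The other calls were Kcng1 (2.04), Scn11a (3.42), Kcnc2 (-1.74), Kcnk2 (-1.73), Kcnh4 (-1.50), Kcnt2 (-1.26) and Cacnb4 (-1.21). Scn11a (Nav1.9 of sensory neurons) rests on 31 reads in CKO neurospheres and 3 reads in control neurospheres, a ratio of 8.97 (95% counting interval 2.80 to 45.9). Kcnh4 (Elk1) and Kcnt2, a sodium-activated potassium channel, were not called within either tissue. Kcnq3 was lower in both tissues and its difference, -0.36 ± 0.157, did not pass (edgeR adjusted p = 0.145).

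The authors' deposited table, at an FDR below 0.05, lists 16 members as lower and 4 as higher in neurospheres. It shares 13 of the 16 lower and both higher calls of the edgeR fit. The authors' deposited table alone lists Kcne1l, Kcnh4 and Scn3b as lower and Kcnc1 and Scn11a as higher, and those that edgeR alone called lower included Kcnab1 and Kcnd1.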

How the data were processed

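The members, channel families and gene lists were chosen with earlier results of these data known. Ribosomal RNA was removed from 500 ng of RNA and directional libraries were made, per the labels' protocols. From the deposited tables, read counts without normalization were used, in whole numbers, per the file headers: total exon reads, uniquely placed exon reads, junction reads and total gene reads. Intron reads are total gene reads minus total exon reads. The authors also deposited, per the file headers, p-values and FDR-corrected p-values of a test named EDGE with tagwise dispersions, and a signed fold change, a score that is CKO over control where positive. No source used here names the aligner, the annotation release or the strand setting, so reads of overlapping antisense genes cannot be told apart. The submitters' processing notes name GRCm38 and mm10, but 0 of 132 members had the start and end of GENCODE M21, so table coordinates are not printed. At least 91.35% of each member's exon reads were uniquely placed. Another 108 columns of per-sample values were not used.

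Counts were fitted with edgeR 4.0.16 in R 4.3.3 (TMM, filterByExpr, robust glmQLFit, two-sided glmQLFTest), on the 6 libraries of each tissue or on all 12 for the difference and the tissue comparison. Benjamini-Hochberg adjustment ran over all genes tested, with calls below 0.05. Members that passed the filter numbered 103 in brain, 94 in neurospheres and 110 in all. SE is the size of the log2 fold change over the root of its F value. CPM uses TMM factors over 12 libraries, and RPKM divides it by exon length. The scripts were tested on simulated data. Named genes were all calls in brain, up to 12 a direction in neurospheres, 6 in the difference and 8 between tissues with at least 1 CPM, the 6 highest per group and 47 fixed names. Other called members are named too, and some results are not reported here. Alternatives were DESeq2 1.42.0, other size factors, no filter, unique or junction reads, a replicate block, 12 libraries in 1 fit and leaving out libraries; junction reads and the peripheral markers were added after the data were seen. Replicate pairs differed by more than counting noise, so each library counts as 1.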

Additional observations from a re-analysis of the deposited data

Results flagged for a closer look

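For 11 members the change in CKO differed between neurospheres and brain by the interaction test, which is what singles them out here. Of 110 members tested, 3 were higher (7.21% of all 14415 genes tested were) and 8 lower (6.06% of all genes). Such calls are thus no rarer in the whole set of genes tested. The difference, neurosphere change minus brain change on the log2 scale, was 3.42 for Scn11a, 2.33 for Kcnk5, 2.04 for Kcng1, -2.38 for Kcnip2, -1.74 for Kcnc2, -1.73 for Kcnk2, -1.50 for Kcnh4, -1.28 for Kcnn1, -1.26 for Kcnt2, -1.21 for Cacnb4 and -1.12 for Kcnh7. Scn11a rests on 3 reads in control neurospheres. Kcnk5, Kcnip2, Kcnn1 and Kcnh7 passed in all 12 fits that left out 1 library. Kcnc2 and Kcnt2 passed in 5, Kcng1 in 4, and Kcnh4, Kcnk2 and Cacnb4 in 2. Scn11a could be fitted in 6 and passed in 1. All these fits share 1 spread between the tissues, so p-values can be too small for the more variable neurospheres.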

How the results depend on the processing

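No called result of a named gene reversed under the alternatives run. Members that were not called did change sign in neurospheres: 8 of 94 without control replicate 1, among them Cacna2d1, and 4 of 90 without both libraries numbered 1, among them Kcnma1. DESeq2 moved the members whose change was lower in neurospheres than in brain to 15 (8 as reported) and the intron calls to 2 lower in brain and 1 higher in neurospheres. Over all genes DESeq2 called 1413 lower for the difference (873 as reported). Without a filter on low counts 2 fell in brain by intron reads. Junction reads, far fewer, gave 0 lower in brain, 0 higher and 8 lower in neurospheres, 0 higher and 2 lower for the difference, and 44 lower for control neurospheres against brains. With all 12 libraries in 1 fit, 0 fell in brain and 5 rose and 35 fell in neurospheres, and by intron reads 0 fell in brain and 4 rose and 9 fell in neurospheres. Over all genes that fit gave 2935 higher and 2813 lower in neurospheres by exon reads, and 1178 and 1056 by intron reads. Without both neurosphere libraries numbered 1, 12 rose and 46 fell in neurospheres, 9 and 38 for the difference, and 10 and 23 by intron reads. Over all genes 3740 rose and 3633 fell in neurospheres by exon reads under that setting. For the difference 2194 were higher and 2718 lower over all genes, and by intron reads 1948 rose and 1931 fell in neurospheres. Whether the replicate numbers pair the libraries could not be decided, since their deviations went both ways. Same-numbered deviations correlated at 0.413, 0.205 and -0.037 in brain and 0.257, -0.026 and 0.233 in neurospheres. CKO replicates 1 and 2 in brain and 1 and 3 in neurospheres correlated best with their own number. CKO replicate 3 in brain and CKO replicate 2 in neurospheres correlated best with another number. With a replicate block 3 fell in brain, 4 rose and 23 fell in neurospheres, and 19 were lower for the difference. By intron reads 3 fell in brain, and 6 rose and 8 fell in neurospheres. Over all genes the block gave 108 higher and 85 lower in brain by exon reads, against 33 and 27 without it. In neurospheres it gave 2072 higher and 1753 lower over all genes, against 1958 and 1595 without it. By intron reads it gave 720 and 620 there, and 1107 were lower for the difference by exon reads. Leaving out 1 library gave 0 to 1 lower and 0 to 0 higher in brain, 0 to 9 higher and 0 to 26 lower in neurospheres, 1 to 7 higher and 3 to 26 lower for the difference, and 14 to 15 higher and 69 to 79 lower between tissues. By intron reads it gave 0 to 1 lower in brain, and 0 to 5 higher and 0 to 7 lower in neurospheres. Of the values for single genes, 500 stayed on the same side of the threshold and 152 no longer passed. By exon reads, the neurosphere fits without any called member had no called gene in the whole table. Fits that leave out libraries hold fewer of them, and the cause was otherwise not tested.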

Other observations

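Brain libraries numbered 2, in both groups, held the most reads of 2 sodium channels of peripheral sensory nerves. Scn10a had 0.964, 5.95 and 0.329 CPM in CKO brains and 2.02, 6.59 and 1.63 CPM in control brains. Scn7a, a sodium sensor known from Schwann cells and glia, had 2.09, 7.93 and 1.31 CPM in CKO brains and 3.46, 11.8 and 1.63 CPM in control brains. A list of 9 markers of peripheral sensory neurons and Schwann cells, added after these values were seen, summed to 87.4, 157 and 76.7 CPM in CKO brains and 102, 143 and 69.9 CPM in control brains. Whether peripheral tissue was taken with some brains was not tested.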
